A study of Homo sapiens with 8 samples.

Results

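The retinoblastoma family of pocket proteins and the E2F transcription factors they bind were followed after silencing of CSE1L, which carries importin alpha out of the nucleus. The genes were RB1, RBL1, RBL2, E2F1, E2F2, E2F3, E2F4, E2F5, E2F7 and E2F8, and every probe whose annotated symbol was one of these 10 was taken. They had 11 probes of the 24531 on the array, 1 per gene and 2 for RBL1. RNA came from 2 established human ovarian carcinoma lines, SK-OV-3 and TOV-21G, 72 h after transfection. The groups were SK-OV-3 given siRNA to CSE1L, SK-OV-3 given a scrambled control siRNA, TOV-21G given siRNA to CSE1L and TOV-21G given the control siRNA, with 2 arrays each, numbered experiment 1 and experiment 2. All cells were therefore transfected, and no untransfected cells were analysed here. The sources used here do not say how many siRNA sequences were used, whether the experiments were separate cultures, or how the cells were distributed over the cell cycle.

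Pocket proteins hold E2F factors in check. RB1 mainly binds the activator E2Fs, namely E2F1, E2F2 and E2F3, while RBL1 (p107) and RBL2 (p130) mainly bind the repressor E2Fs, E2F4 and E2F5. When cyclin-dependent kinases phosphorylate the pocket proteins, the activators are released and genes for DNA replication are transcribed. E2F7 and E2F8 are atypical E2Fs that repress E2F targets later in the cycle and bind DNA without a DP partner or a pocket protein. RBL1, E2F1, E2F2, E2F7 and E2F8 are themselves classic E2F targets, while RBL2 and E2F4 are prominent in resting cells.

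Of the 11 probes, 8 passed the filter on low signal, 1 each for RB1, RBL1, RBL2, E2F2, E2F3, E2F4, E2F5 and E2F7. The filter asked for a detection p below 0.01 on at least 2 of the 8 arrays, where the detection p ranks a probe against the array's negative control beads. Levels are log2 intensities after background correction and quantile normalization, so a difference of 1 is a 2-fold difference, and a level holds for its own probe and is not comparable with that of another probe. The fit was made on all 10888 probes that passed, and a difference was called when its limma adjusted p over all of them was below 0.05.

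CSE1L itself had log2 intensities of 8.80 and 7.72 in silenced TOV-21G cells, against 13.02 and 11.65 in control TOV-21G cells. In SK-OV-3 it had 10.51 and 8.99 in silenced cells, against 12.04 and 12.56 in control cells. The silenced arrays were below the control arrays in both lines. The change was -4.08 in TOV-21G (SE 0.63, n = 2 arrays per group, limma adjusted p = 0.0266) and -2.55 in SK-OV-3 (SE 0.63, n = 2 per group, limma adjusted p = 0.265), so only the TOV-21G change was called. That call was lost without TOV-21G CSE1L siRNA experiment 2 (change -3.54, limma adjusted p = 0.116), control experiment 1 (-3.39 and 0.148) or control experiment 2 (-4.76 and 0.0842), and on leaving out 1 array the CSE1L change in SK-OV-3 lay between -3.31 and -1.79. Each array detected between 9206 and 9820 probes, and replicate arrays correlated across probes at 0.971 to 0.981. The line labels were set against marker genes: KRT8 and KRT18, keratins of simple epithelia, were detected on all 8 arrays, KRT19 on 6, CDH1 on 2 and EPCAM on 0. ERBB2, which is amplified in SK-OV-3, was detected on all 8 arrays. Of markers of other cell types, the leukocyte genes PTPRC, CD3E and CD79A and the endothelial genes PECAM1, CDH5 and VWF were detected on 0 arrays and CD14 on 5. Of the fibroblast genes, COL1A1 was detected on 8 arrays, DCN on 4, and COL1A2 and COL3A1 on 0.

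The promoters are shown because several of these genes are regarded as targets of their own family. RefSeq windows (GRCh38.p14) were found for 8 of the 10 genes, all but E2F5 and E2F8, and the 250 bases before the annotated start were searched on both strands for 4 words of the E2F type, TTTCCCGC, TTTGGCGC, TTTCGCGC and TTTGCCGC. At least 1 of the 4 words was present in a window of 4 of these 8 genes, among which RBL2 and E2F3 have 2 windows each. Counted by window and not by gene, the words were present in 2.79% of all 35116 windows. The last 80 bases before the start are printed 5′ to 3′ on the gene's strand, with each word in capitals; the first 4 are the genes with a word, and E2F4 and E2F7 are shown as the remaining E2F genes with a window.
RBL1, chr20:37095998-37096077, minus strand: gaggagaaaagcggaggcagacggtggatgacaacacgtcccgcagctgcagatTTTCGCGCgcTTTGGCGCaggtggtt
E2F2, chr1:23531234-23531313, minus strand: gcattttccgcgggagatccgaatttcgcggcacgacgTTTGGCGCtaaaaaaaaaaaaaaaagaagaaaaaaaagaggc
E2F1, chr20:33686386-33686465, minus strand: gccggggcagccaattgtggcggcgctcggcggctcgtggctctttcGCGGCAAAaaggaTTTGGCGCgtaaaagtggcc
E2F3, chr6:20401799-20401878, plus strand: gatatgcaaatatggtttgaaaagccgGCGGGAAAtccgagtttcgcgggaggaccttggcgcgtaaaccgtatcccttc
E2F4, chr16:67192075-67192154, plus strand: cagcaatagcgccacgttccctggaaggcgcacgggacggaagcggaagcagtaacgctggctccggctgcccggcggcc
E2F7, chr12:77065570-77065649, minus strand: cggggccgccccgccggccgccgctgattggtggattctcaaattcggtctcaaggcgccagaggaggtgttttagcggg

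RBL1 held TTTCGCGC at 26 to 19 bases and TTTGGCGC at 16 to 9 bases before its start. In E2F2 the word TTTGGCGC lay 42 to 35 bases before the start. E2F1 held TTTGGCGC at 20 to 13 bases and, on the opposite strand, TTTGCCGC at 33 to 26 bases, which reads GCGGCAAA as printed. E2F3 had 2 windows, and the one shown held TTTCCCGC on the opposite strand at 53 to 46 bases, printed as GCGGGAAA. E2F4, E2F7 and both windows of RBL2 held none of these words, which says nothing about whether an E2F binds there. The RB1 window of 250 bases searched, of which chr13:48476370-48476449 on the plus strand is the last 80, also held none. Whether that window lies at the main start of RB1 was not checked, so nothing is said about the RB1 promoter. A match is a run of letters and not a measured binding site.

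In TOV-21G, RBL1 and E2F2 fell after CSE1L silencing and no other pocket protein or E2F probe was called. These were 2 calls among 8 tested probes, both lower, where 334 of all 10888 probes were called in either direction (3.07%) and 214 were called lower (1.97%). Median scaling in place of quantile normalization gave 55 higher and 243 lower calls over all probes, beside 120 higher and 214 lower as reported. The TOV-21G change was below 0 for 7 of the 8 probes, with a median of -0.59, against a median of 0.01 over all probes tested. Leaving out TOV-21G CSE1L siRNA experiment 2, TOV-21G control experiment 1 or TOV-21G control experiment 2 left 0 of the 8 called, and leaving out either silenced SK-OV-3 array left 1, RBL1.

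RBL1 encodes p107, the pocket protein whose gene is switched on as cells enter the cycle. Its probe had log2 intensities of 6.29 and 6.10 in silenced TOV-21G cells, against 8.72 and 8.74 in control TOV-21G cells. In SK-OV-3 it had 9.13 and 8.90 in silenced cells, against 9.55 and 9.21 in control cells. The silenced TOV-21G arrays stood below all 6 others, and the silenced and control arrays did not overlap in either line. The TOV-21G change was -2.54 (SE 0.22, 95% interval -3.05 to -2.02, n = 2 per group, limma adjusted p = 0.0151). The SK-OV-3 change was -0.37 (SE 0.22, 95% interval -0.88 to 0.15, limma adjusted p = 0.66) and was not called.

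The RBL1 probe was not detected on either silenced TOV-21G array, with detection p of 0.0165 and 0.0150 and deposited signals of 247 and 206, against signals of 589 and 606 in control TOV-21G cells. Its level in silenced TOV-21G cells is therefore only bounded. With the lowest detected signal on those arrays put in its place, the group means differed by 4.71-fold (-2.24 on the log2 scale). That bound takes no account of the spread between arrays, and it belongs to the background correction used. The change was -1.46 with no background correction (limma adjusted p = 0.00397) and -1.32 in the values normalized by the authors (limma adjusted p = 0.00297), and it was called in both. Leaving out TOV-21G CSE1L siRNA experiment 2, control experiment 1 or control experiment 2 gave limma adjusted p of 0.0661, 0.0864 and 0.0842, with changes of -2.44, -2.55 and -2.53.

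E2F2, an activator E2F that drives entry into S phase, had log2 intensities of 9.56 and 9.21 in silenced TOV-21G cells, against 11.62 and 11.45 in control TOV-21G cells. In SK-OV-3 it had 10.85 and 10.92 in silenced cells, against 10.86 and 9.93 in control cells. In TOV-21G both silenced arrays were low and the groups were far apart, while in SK-OV-3 the groups overlapped and the control arrays differed from each other by more than the silenced ones did. The TOV-21G change in E2F2 was -2.15, which left 22.6% of the control level and made a 4.43-fold difference (SE 0.32, n = 2 per group, limma adjusted p = 0.0265). The SK-OV-3 change was 0.49 (SE 0.32, 95% interval -0.24 to 1.22, limma adjusted p = 0.693). Leaving out TOV-21G CSE1L siRNA experiment 2, control experiment 1 or control experiment 2 gave limma adjusted p of 0.108, 0.153 and 0.0954, and leaving out either silenced SK-OV-3 array gave 0.051.

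**Figure D1:**
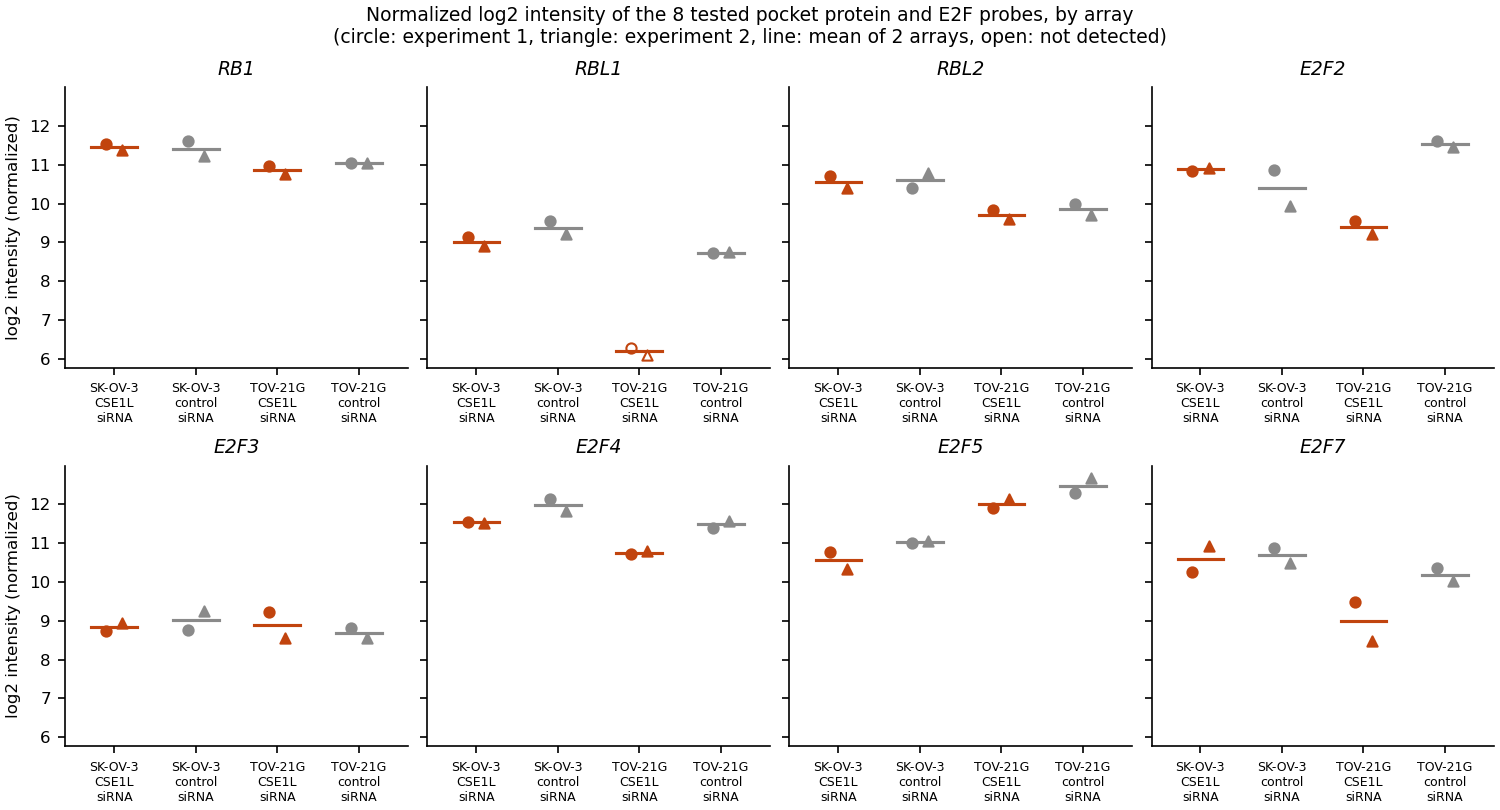
Normalized log2 intensity (vertical axis, the same range in every panel) of the 8 tested probes in the 4 groups, silenced left of control within each line. Circles are experiment 1, triangles experiment 2, lines the mean of 2 arrays, and open symbols arrays on which the probe was not detected. RB1, RBL1, E2F2, E2F4 and E2F7 stand lowest on both silenced TOV-21G arrays, of which only RBL1 and E2F2 were called in TOV-21G. E2F5 stands higher in TOV-21G than in SK-OV-3.

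E2F7, an atypical repressor of E2F targets, had log2 intensities of 9.48 and 8.49 in silenced TOV-21G cells, against 10.36 and 10.01 in control TOV-21G cells. In SK-OV-3 it had 10.25 and 10.93 in silenced cells, against 10.86 and 10.49 in control cells. The silenced TOV-21G arrays lay below their controls but a whole log2 unit apart, and the SK-OV-3 groups overlapped. The changes of -1.20 in TOV-21G (SE 0.38, limma adjusted p = 0.138) and -0.09 in SK-OV-3 (SE 0.38, limma adjusted p = 0.965) were not called. Without 1 TOV-21G array the TOV-21G change lay anywhere between -1.70 and -0.70.

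Among the repressor E2Fs, E2F4 had log2 intensities of 10.71 and 10.79 in silenced TOV-21G cells, against 11.38 and 11.57 in control TOV-21G cells. In SK-OV-3 it had 11.55 and 11.51 in silenced cells, against 12.13 and 11.82 in control cells. The silenced arrays were the lower ones in both lines and did not overlap the controls. The changes of -0.73 in TOV-21G (SE 0.21, unadjusted p = 0.0094, limma adjusted p = 0.119) and -0.45 in SK-OV-3 (SE 0.21, limma adjusted p = 0.56) missed the threshold.

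E2F5, the other repressor that pairs with RBL1 and RBL2, had log2 intensities of 11.89 and 12.13 in silenced TOV-21G cells, against 12.28 and 12.66 in control TOV-21G cells. In SK-OV-3 it had 10.77 and 10.34 in silenced cells, against 10.99 and 11.05 in control cells. Silenced arrays were lower in both lines without overlap, by a similar amount. The changes were -0.46 in TOV-21G (SE 0.25, limma adjusted p = 0.365) and -0.46 in SK-OV-3 (SE 0.25, limma adjusted p = 0.606), neither of them called.

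RB1 and RBL2, the other pocket proteins, and E2F3, the remaining measured activator, were not called in either line. RB1 had log2 intensities of 10.97 and 10.77 in silenced TOV-21G cells, against 11.05 and 11.03 in control TOV-21G cells, and 11.52 and 11.38 in silenced SK-OV-3 cells, against 11.61 and 11.22 in control SK-OV-3 cells. RBL2 had 9.83 and 9.60 in silenced TOV-21G cells, against 9.995 and 9.71 in control TOV-21G cells, and 10.70 and 10.39 in silenced SK-OV-3 cells, against 10.41 and 10.78 in control SK-OV-3 cells. E2F3 had 9.22 and 8.56 in silenced TOV-21G cells, against 8.82 and 8.56 in control TOV-21G cells, and 8.74 and 8.94 in silenced SK-OV-3 cells, against 8.75 and 9.26 in control SK-OV-3 cells. The groups overlapped in every one of these pairs except RB1 in TOV-21G, where the silenced arrays were slightly lower. The TOV-21G changes were -0.17 for RB1 (95% interval -0.69 to 0.35), -0.14 for RBL2 (-0.70 to 0.43) and 0.20 for E2F3 (-0.48 to 0.88), with limma adjusted p of 0.746, 0.817 and 0.769. In SK-OV-3 they were 0.03 for RB1 (95% interval -0.48 to 0.55), -0.05 for RBL2 (-0.61 to 0.52) and -0.17 for E2F3 (-0.84 to 0.51), with limma adjusted p of 0.977, 0.968 and 0.911.

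The other 3 probes stayed outside the fit. E2F1, the founding activator E2F, had detection p between 0.0135 and 0.433, with log2 intensities of 5.55 and 6.17 in silenced TOV-21G cells, 5.35 and 5.50 in control TOV-21G cells, 6.02 and 5.06 in silenced SK-OV-3 cells and 5.22 and 5.06 in control SK-OV-3 cells. E2F8, the other atypical E2F, had detection p between 0.597 and 0.946 and log2 intensities between 4.74 and 4.96 over all 8 arrays. Neither was told apart from the negative control beads on any array. The second RBL1 probe, annotated to another RBL1 transcript, had detection p between 0.0571 and 0.456 and log2 intensities between 5.04 and 5.60. It was likewise undetected everywhere and so says nothing for or against the fall seen with the first RBL1 probe.

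In SK-OV-3 limma called none of the 8 probes and none of all 10888 (0%), although 1041 of all probes and 0 of the 8 had an unadjusted p below 0.05. Their median change was -0.13, against -0.01 over all probes. The silenced arrays lay wholly below the control arrays for 3 of the 8 probes, RBL1, E2F4 and E2F5, and for 21% of all probes. In TOV-21G the same held for 6 of the 8, RB1, RBL1, E2F2, E2F4, E2F5 and E2F7, and for 24.5% of all probes, and 0 of the 8 lay wholly above their controls.

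**Figure D2:**
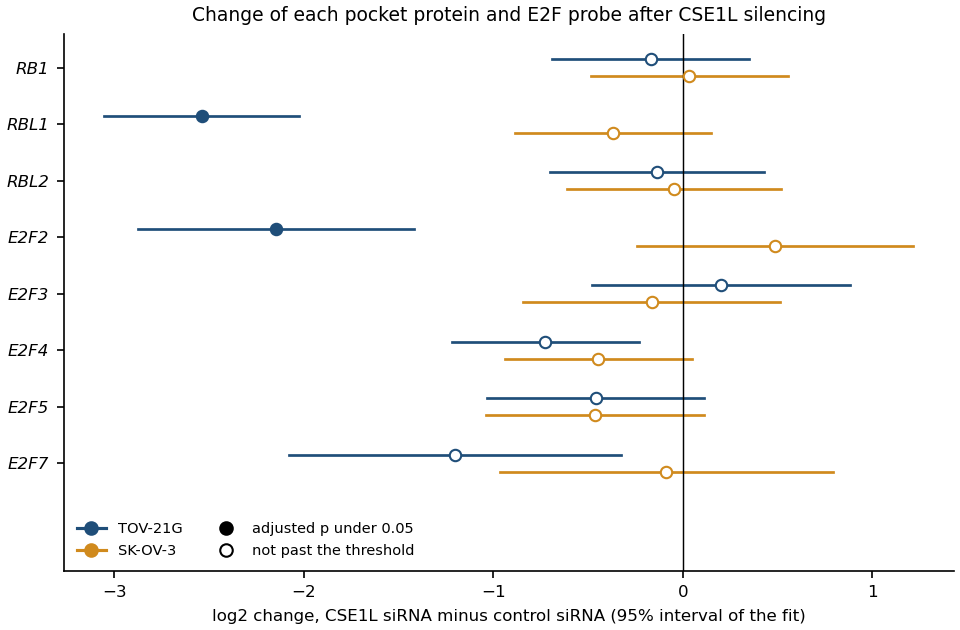
Change of each tested probe after silencing (horizontal axis, log2 intensity in CSE1L siRNA minus control siRNA, with the 95% interval of the fit) in TOV-21G, upper of each pair, and SK-OV-3. Filled points are called: RBL1 at -2.54 and E2F2 at -2.15 in TOV-21G.

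Whether the lines differed in their response was asked directly, by subtracting the SK-OV-3 change from that of TOV-21G. For E2F2 it was -2.63 (SE 0.45, 95% interval -3.66 to -1.60, unadjusted p = 0.000372) and for RBL1 -2.17 (SE 0.32, 95% interval -2.90 to -1.44, unadjusted p = 0.00013), each with a limma adjusted p of 0.177. For E2F7 it was -1.12 (SE 0.54, limma adjusted p = 0.542). The silencing of CSE1L itself differed by -1.53 (SE 0.88, 95% interval -3.57 to 0.52, limma adjusted p = 0.625). The part of unequal silencing in the other differences was not tested. None of the 8 differences was called, and neither was that of any other probe (0%, with 1085 probes at an unadjusted p below 0.05). E2F2 was called with the values normalized by the authors (limma adjusted p = 0.0368) and with a trended, robust estimate of the spread (limma adjusted p = 0.0493). The RBL1 difference, which also rests on a bounded level, ranged from -2.34 to -1.04 over the alternatives. E2F3 stood at the other end with a difference of 0.37 (95% interval -0.59 to 1.33, limma adjusted p = 0.835). For E2F5 the difference was 0.00 (95% interval -0.81 to 0.81), an interval that leaves room for unequal changes.

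Averaged over both lines, RBL1 fell by 1.45 on the log2 scale (SE 0.16, limma adjusted p = 0.0195), the 1 call among the 8. This value includes the bounded level in silenced TOV-21G cells and ran from -1.55 to -0.80 over the alternatives. Of all probes 1.99% were called for this average and 1.11% were called lower, and median scaling gave 46 higher and 145 lower calls beside 96 higher and 121 lower as reported. E2F4 followed with -0.59 (SE 0.15, limma adjusted p = 0.0898) and E2F2 with -0.83 (SE 0.22, limma adjusted p = 0.0967). The RBL1 call was lost without SK-OV-3 CSE1L siRNA experiment 2 (limma adjusted p = 0.11), without either SK-OV-3 control array (0.077 and 0.0678), without TOV-21G CSE1L siRNA experiment 2 (0.0618) and without either TOV-21G control array (0.0986 and 0.0825).

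The control cells of the lines differed in this family too. E2F5 was higher in TOV-21G control cells by 1.45 on the log2 scale, or 2.73-fold, with means of 12.47 ± 0.27 in TOV-21G and 11.02 ± 0.05 in SK-OV-3 (SD, n = 2 each, limma adjusted p = 0.00295). E2F2 was higher by 1.14, with means of 11.53 ± 0.12 in TOV-21G and 10.39 ± 0.65 in SK-OV-3 (SD, n = 2 each, limma adjusted p = 0.0266). RBL2 was lower by 0.74 on the log2 scale, with means of 9.85 ± 0.20 in TOV-21G and 10.60 ± 0.26 in SK-OV-3 (SD, n = 2 each, limma adjusted p = 0.0496). These were 3 calls among 8 probes, where 32.9% of all probes were called between the lines, so the family's share was near that of the array. E2F5 was called on leaving out any 1 array, whereas RBL2 was lost on leaving out any 1 of the 8 (limma adjusted p of 0.0572 to 0.224). E2F2 was lost without SK-OV-3 control experiment 2 (change 0.68, limma adjusted p = 0.127), TOV-21G control experiment 1 (0.114) or TOV-21G control experiment 2 (0.076).

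Control arrays of TOV-21G and SK-OV-3 did not overlap for 7 of the 8 probes, lower in TOV-21G for RB1, RBL1, RBL2, E2F4 and E2F7 and higher for E2F2 and E2F5, as for 68% of all probes. RBL1 was lower by 0.65 in TOV-21G control cells (SE 0.22, limma adjusted p = 0.0578). In rising order of group mean, RBL1 stood at 6.20 in silenced TOV-21G, 8.73 in control TOV-21G, 9.01 in silenced SK-OV-3 and 9.38 in control SK-OV-3 cells, and no neighbouring groups overlapped. E2F2 stood at 9.39 in silenced TOV-21G, 10.39 in control SK-OV-3, 10.88 in silenced SK-OV-3 and 11.53 in control TOV-21G cells, and only the SK-OV-3 groups overlapped. E2F5 stood at 10.56 in silenced SK-OV-3, 11.02 in control SK-OV-3, 12.01 in silenced TOV-21G and 12.47 in control TOV-21G cells, again with no overlap of neighbours.

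The partners of this family were taken from lists, each gene standing for its brightest probe. Of the DP subunits that E2Fs need to bind DNA, and E2F6, a repressor outside pocket protein control, 2 of 4 were tested and neither was called in either line. TFDP1, the main DP subunit, changed by -0.53 in TOV-21G (SE 0.31, limma adjusted p = 0.406) and E2F6 by 0.05 (SE 0.23, limma adjusted p = 0.94). The MuvB core forms the DREAM repressor with RBL1 or RBL2 and later, with MYB proteins and FOXM1, activates mitotic genes. Of these genes 3 of 8 were tested and 0 called. FOXM1 came nearest in TOV-21G with a change of -0.94 (SE 0.21, limma adjusted p = 0.0595), and it was called under 6 of 18 alternatives (lowest limma adjusted p = 0.0191). Of 8 corepressors that pocket proteins recruit, 4 were tested and 0 called. SUV39H1, a histone methyltransferase, had a TOV-21G change of -1.01 (SE 0.28, limma adjusted p = 0.103) and was called under 3 of 18 alternatives.

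Upstream of the pocket proteins, 9 of 10 cyclin, kinase and CDC25A genes were tested. In TOV-21G 2 fell, 0 rose and 7 were not called, where 1.97% of all probes were called lower. CDC25A, the phosphatase that activates CDK2, fell by 1.33 (SE 0.20, limma adjusted p = 0.0265), and CCNA2, the S phase cyclin, fell by 2.06 (SE 0.41, limma adjusted p = 0.042). CDC25A was called on leaving out either SK-OV-3 control array and on no other removal of 1 array (limma adjusted p up to 0.135), and CCNA2 was called without TOV-21G CSE1L siRNA experiment 1 and on no other removal (up to 0.175), with changes of -2.74 to -1.39. CCND2, a D-type cyclin, went the other way with a change of 1.21 (SE 0.33, limma adjusted p = 0.1), and was called under 3 of 17 alternatives. Of the CDK inhibitors 4 of 7 were tested and 0 called, with TOV-21G changes of 0.55 for CDKN2B, 0.32 for CDKN2D, 0.29 for CDKN1A and -0.33 for CDKN2A. CDKN1A and CDKN2D were detected on all 8 arrays, but CDKN2A on 2 and CDKN2B on 3, so these lay near background. CDKN2B was undetected in control TOV-21G cells, and the bound on its TOV-21G difference was 1.22-fold. Of these lists none had a gene called in SK-OV-3, where CCND1 (change -1.34, limma adjusted p = 0.124) was called under 2 of 18 alternatives, no background correction (0.0268) and the trended, robust spread (0.00847).

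Downstream, 32 genes that E2F factors switch on at the start of S phase were taken as G1/S genes, and 28 were tested. In TOV-21G 10 of them fell, 0 rose and 18 were not called, beside the 1.97% of all probes called lower. All 28 had a change below 0, with a median of -1.24, against 0.01 over all probes. CDC6, MCM10, POLA1 and BRCA1 were detected on 0 silenced TOV-21G arrays, and MSH6 and the called CDC45 and PRIM1 on 1. The changes of these genes therefore rest on levels near background. RRM2, a subunit of ribonucleotide reductase, fell by 2.41 (SE 0.27, limma adjusted p = 0.016). ORC1, of the origin recognition complex, fell by 2.15 (SE 0.27, limma adjusted p = 0.0202). The helicase genes MCM4 and MCM6 had changes of -1.71 and -1.52 (limma adjusted p of 0.0227 and 0.0271). In SK-OV-3 0 were called and the median was -0.19 with 25 of 28 below 0. Without SK-OV-3 control experiment 1 that median was 0.03 with 13 of 28 below 0, and without control experiment 2 it was -0.38.

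Of 24 genes of mitosis that MuvB complexes control 18 were tested, of which 10 fell in TOV-21G, 0 rose and 8 were not called, again beside 1.97% of all probes. All 18 changes were below 0 with a median of -1.70, though TTK, not called, was detected on 0 silenced TOV-21G arrays. CENPA, the centromere histone, fell by 2.50 (SE 0.27, limma adjusted p = 0.016), TOP2A, topoisomerase II alpha, fell by 2.44 (SE 0.32, limma adjusted p = 0.0219), the kinase AURKA fell by 2.28 (SE 0.21, limma adjusted p = 0.0151), and MKI67, the proliferation marker, fell by 2.01 (SE 0.23, limma adjusted p = 0.016). In SK-OV-3 0 were called and the median was -0.10 (between -0.19 and -0.03 over the alternatives), with a change of -0.81 for AURKA (limma adjusted p = 0.277). In both lists the count of falls in TOV-21G was 0 without TOV-21G CSE1L siRNA experiment 2, control experiment 1 or control experiment 2, while the medians stayed between -1.44 and -0.97 for G1/S genes and between -2.27 and -1.19 for mitotic genes over all alternatives. The falls of RBL1 and E2F2 went with those of markers of cycling cells, whose part in the result was not tested. In bulk RNA, fewer cells in the phases that express these genes cannot be told apart from less of their RNA per cell.

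**Figure D3:**
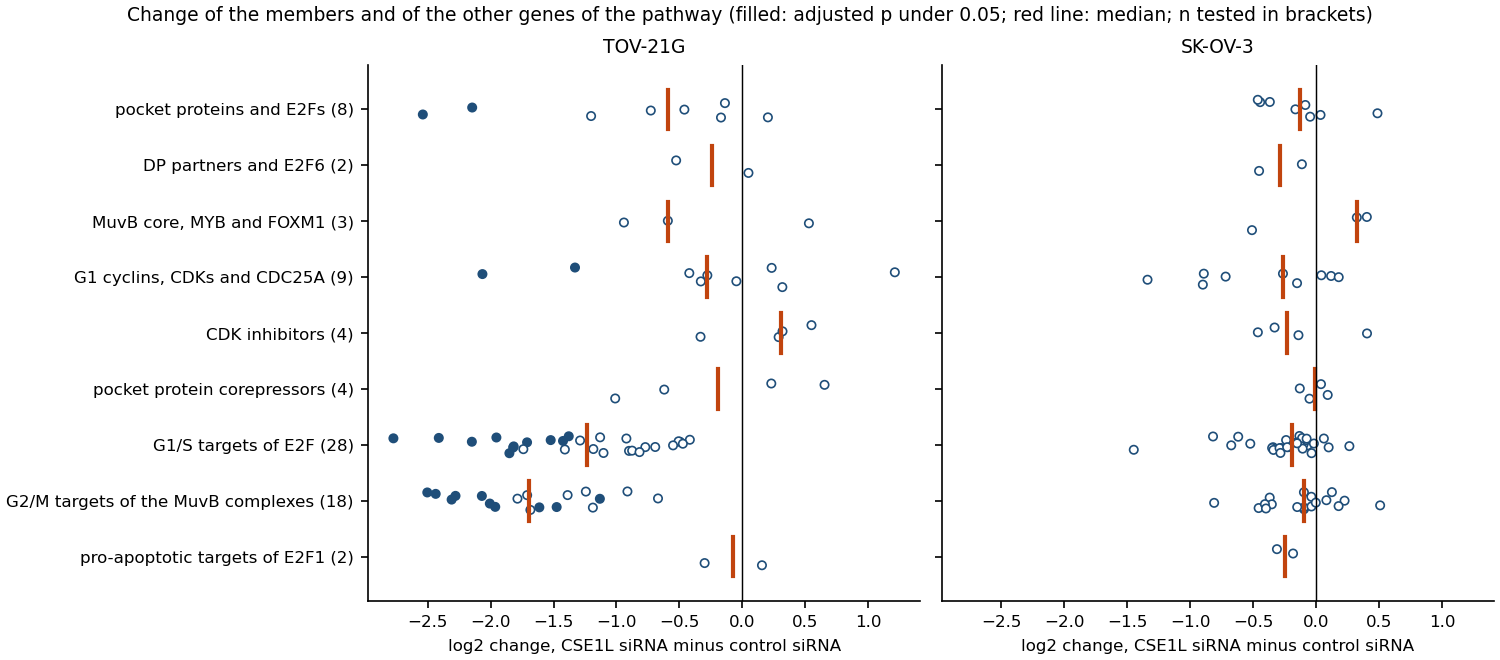
Change after silencing (horizontal axis, log2 intensity in CSE1L siRNA minus control siRNA) of every tested gene of the family and of the 8 lists around it, in TOV-21G on the left and SK-OV-3 on the right. Each point is a gene, filled where called, and the red line is the list's median: -1.24 for G1/S genes and -1.70 for mitotic genes in TOV-21G, against -0.19 and -0.10 in SK-OV-3 (the G1/S median was 0.03 without SK-OV-3 control experiment 1).

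Of the pro-apoptotic genes known as E2F1 targets, 2 of 7 were tested and neither was called. BCL2L11, a BH3-only protein, had a TOV-21G change of -0.30 and APAF1, the apoptosome scaffold, one of 0.16, with limma adjusted p of 0.662 and 0.906.

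The genes whose levels ran most like each member over the 8 arrays were found by Pearson correlation among 8372 named genes, as a description in which all points share the 4 groups and the line difference. RBL1 ran closest to XRCC3 (r = 0.993), TICRR (0.990) and CENPM (0.989). E2F2 ran closest to PRPF8 (r = 0.966), CFL2 (0.959) and POLE2 (0.958), and E2F7 to SSRP1 (r = 0.985), DDIAS (0.985) and PARP1 (0.983). TOV-21G changes were -1.39 for XRCC3, -1.94 for TICRR and -1.58 for CENPM. They were -0.47 for PRPF8, -0.79 for CFL2 and -1.34 for POLE2, and -0.96 for SSRP1, -1.05 for DDIAS and -0.95 for PARP1. The nearest gene was PTPN2 for E2F4 (r = 0.993), TOR3A for E2F5 (r = 0.996), UNG for RB1 (r = 0.988), LY6H for RBL2 (r = 0.985) and MAPRE1 for E2F3 (r = 0.967).

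**Figure D4:**
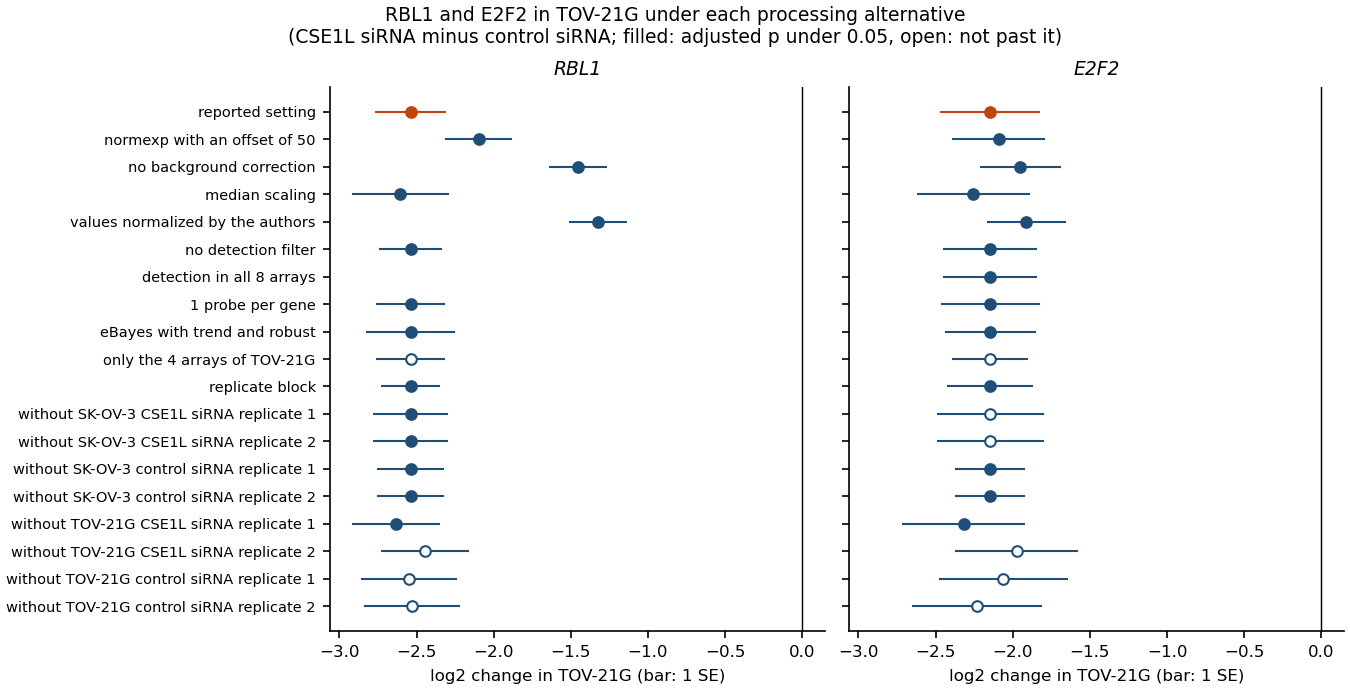
Change of RBL1 and E2F2 in TOV-21G (horizontal axis, log2 intensity in CSE1L siRNA minus control siRNA, bar of 1 SE) under the reported setting, in red, and each alternative. Filled points are called; RBL1 was called under 13 of 17 alternatives with changes of -2.63 to -1.32, and E2F2 under 12 of 18 with changes of -2.32 to -1.91.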

How the data were processed

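Biotin-labelled cRNA from 8 samples was hybridised to Illumina expression arrays. Per the file headers, the deposited table held non-normalized bead signal intensity on a linear scale with a detection p-value beside each value, per the submitters' processing notes from BeadStudio 2. The authors also deposited normalized intensity values, and their normalization is not given in the sources used here. The probe order of this table within each array was that of the non-normalized intensity (Spearman rho 1).

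Signals were background corrected (normexp from the detection p-values, offset 16), quantile normalized and log2 transformed in limma 3.58.1 (R 4.3.3). Probes with a detection p below 0.01 on at least 2 arrays were kept, 10888 of 24531. limma's lmFit and eBayes fitted 4 group means to the 8 arrays (4 residual and 3.95 prior degrees of freedom), with Benjamini-Hochberg adjustment over all kept probes at 0.05. SE is that of the fit. The steps were checked on simulated data.

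Probes were tested as themselves, and a list gene stood for its brightest probe. Each list names up to 4 genes with the smallest TOV-21G p and up to 2 with the smallest SK-OV-3 p, of which the text gives a selection. The symbols came from GEO's platform annotation, in which 21838 probes had 1 symbol and 2693 none. Members and lists were chosen with earlier results of these data known. Nothing says that experiments 1 and 2 were separate cultures, so the p-values cover just the spread among these arrays, which may be technical. With 2 arrays a group, the number of arrays limits the precision. The alternatives were other background corrections, scalings, filters and spread estimates, the authors' values, 1 probe per gene, the arrays of 1 line, an experiment block and leaving out each array. No slide was given, so none was blocked. Plots used matplotlib 3.10.9 under Python 3.11.15.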

Additional observations from a re-analysis of the deposited data

How the results depend on the processing

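No change reversed, a change smaller than its SE being taken as having no direction. SK-OV-3 had 0 of the 8 probes called under all 18 alternatives. In TOV-21G the 2 calls became 1 with detection asked on all 8 arrays, where RBL1 was no longer tested, and 0 with only the 4 arrays of TOV-21G, and lay between 0 and 2 on leaving out 1 array. For the mean the 1 call became 3 with no background correction and with a trended, robust spread (RBL1, E2F2, E2F4), 2 with the authors' values, 0 with detection on all 8 arrays, and 0 to 1 on leaving out 1 array. For the difference the 0 calls became 1 (E2F2) with the authors' values and with the trended, robust spread. Between control lines the 3 calls became 4 with no background correction and with the replicate block (RBL1 added), 2 with median scaling or no detection filter, and 1 to 2 on leaving out 1 array. The causes were not tested.

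Over all probes, the 334 TOV-21G calls became 578 with no background correction, 548 with the trended, robust spread, 613 with the replicate block, 0 with only 4 arrays and 0 to 167 on leaving out 1 array. The 0 SK-OV-3 calls became 9 with an offset of 50, 22 with no background correction, 9 with median scaling, 20 with the authors' values, 9 with detection on all 8 arrays, 1 with 1 probe per gene and 25 with the trended, robust spread. The 217 calls for the mean became 500 with no background correction, 445 with the authors' values, 131 with no filter, 365 with detection on all 8 arrays, 497 with the trended, robust spread, 481 with the replicate block and 0 to 105 on leaving out 1 array. The 0 calls for the difference became 5 with no background correction, 16 with the authors' values, 1 with detection on all 8 arrays and 10 with the trended, robust spread. The 3585 calls between control lines became 2197 with detection on all 8 arrays. The 10 falls in TOV-21G among G1/S genes lay between 0 and 18 over all alternatives, and the 10 among mitotic genes between 0 and 16; these counts were added after seeing the data.

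Experiment numbers gave deviation correlations of 0.12 in SK-OV-3, 0.55 in TOV-21G, -0.13 between the control groups and -0.18 between the silenced groups. With fewer than 3 pairs per comparison they were taken to share only a number. The replicate block kept RBL1 (limma adjusted p = 0.0249) and E2F2 (0.0257) called in TOV-21G. E2F1, E2F8 and the second RBL1 probe were too near background for any statement about change.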

Other observations

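CCND1, the D-type cyclin whose kinase phosphorylates the pocket proteins first, had log2 intensities of 12.779 and 13.002 in silenced SK-OV-3 cells, against 14.368 and 14.093 in control SK-OV-3 cells. In TOV-21G it had 13.31 and 13.52 in silenced cells, against 13.62 and 13.76 in control cells. Silenced arrays were lower in both lines without overlap. The change was -1.34 in SK-OV-3 (limma adjusted p = 0.124, called under 2 of 18 alternatives) and -0.28 in TOV-21G (limma adjusted p = 0.552), and the mean of both was called at -0.81 (limma adjusted p = 0.0487). That call was lost with median scaling, with no detection filter and on leaving out any 1 array, with limma adjusted p of up to 0.156.

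CDC25A had log2 intensities of 10.85 and 10.87 in silenced SK-OV-3 cells, against 11.78 and 11.73 in control SK-OV-3 cells. The silenced arrays were lower by a margin far above the gap between replicates, and the change of -0.90 still missed the threshold (limma adjusted p = 0.222). Its mean change over both lines was -1.12 (limma adjusted p = 0.0275), and it was called on leaving out 1 of the 8 arrays, TOV-21G CSE1L siRNA experiment 1 (limma adjusted p = 0.0444).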
